A study of Rattus norvegicus with 12 samples.

Results

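The 10 genes followed here are enriched in myelin-forming oligodendrocytes, where most of them make lipids, handle small metabolites or build the matrix around the axon: Ugt8, Gal3st1, Fa2h, Aspa, Qdpr, Hapln2, Enpp2, Enpp6, Evi2a and Car2. Every probe set that the array annotation gives to one of them was taken, which came to 14 of 31099 probe sets and to 10 of the 14218 genes with a symbol of their own. The data are microarray signals from the cortex of 12 male Fischer 344 rats, 6 aged (21 to 23 months by the labels) and 6 young (3 to 5 months), with 1 array for each rat. The sample titles name parietal cortex whereas the tissue field names frontal cortex, and the study used the region under its EEG electrodes. All rats of both ages carried an implanted EEG and EMG transmitter and had been trained in a water maze, an exposure that both age groups share. The comparison of aged with young rats asked which transcripts of the cortex differ with age.

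Oligodendrocytes wrap axons in myelin, a membrane that is rich in galactolipids. Ceramide galactosyltransferase (Ugt8) puts galactose on ceramide, fatty acid 2-hydroxylase (Fa2h) supplies the hydroxylated fatty acid of that ceramide, and cerebroside sulfotransferase (Gal3st1) turns the product into sulfatide. Aspartoacylase (Aspa) frees acetate from N-acetylaspartate, which neurons make, and carbonic anhydrase 2 (Car2) and dihydropteridine reductase (Qdpr) are soluble enzymes that are abundant in these cells.

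In aged cortex 9 of the 10 genes had a higher mean log2 signal than in young cortex and 1 (Enpp6) a lower one, but no gene passed an adjusted p of 0.05 in limma over the 13254 genes tested, a threshold that 7 genes (0.0528%) passed. Qdpr was 1.52-fold and Hapln2 1.70-fold higher in aged than in young rats, and these were the only members with an unadjusted p up to 0.01, in a fit where 1.92% of all genes reached it in that direction. At an unadjusted p up to 0.05, which 9.09% of all genes reached in either direction, 2 members (Qdpr and Hapln2) were higher in aged rats, beside 6.47% of all genes, and no member was lower, beside 2.62% of all genes. That split of all genes, 858 higher and 347 lower, depended on the scaling and was 413 higher and 883 lower after each array was centred on its median, where 9 members were again higher and 1 lower. The median log2 fold change of the 10 genes was 0.23, against 0.024 for all genes, of which 56.9% were higher in aged rats. The aged and young ranges overlapped for all 10 genes, while 0.536% of all genes had every aged rat above every young rat. Between rats of one age the genes moved largely together: a rat with a high signal for one of them tended to have high signals for the others, and for the structural proteins of myelin. In homogenised tissue, a different number of oligodendrocytes and a different amount of RNA in each of them cannot be told apart.

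The deposited arrays had been scaled to a common trimmed mean, so a like overall brightness was set by that scaling. The median signal of all probe sets was 168 to 194 in aged rats and 162 to 172 in young rats, and aged rats 3, 5 and 6 were above every young rat. The 10 member genes were above the presence cutoff (a log2 signal of 4.3) on all 12 arrays, a lenient cutoff here that 83.3% to 87.1% of probe sets exceeded on each array. Each array's mean correlation with the others lay between 0.946 (aged rat 2) and 0.956. The sample codes in the labels fall into a lower and a higher run of numbers whose meaning is not given, with 4 aged and 3 young rats in the lower run and 2 aged and 3 young rats in the higher. Nothing says how the animals were spread over days or hybridisations, so the p-values measure the spread between these rats.

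**Figure D1:**
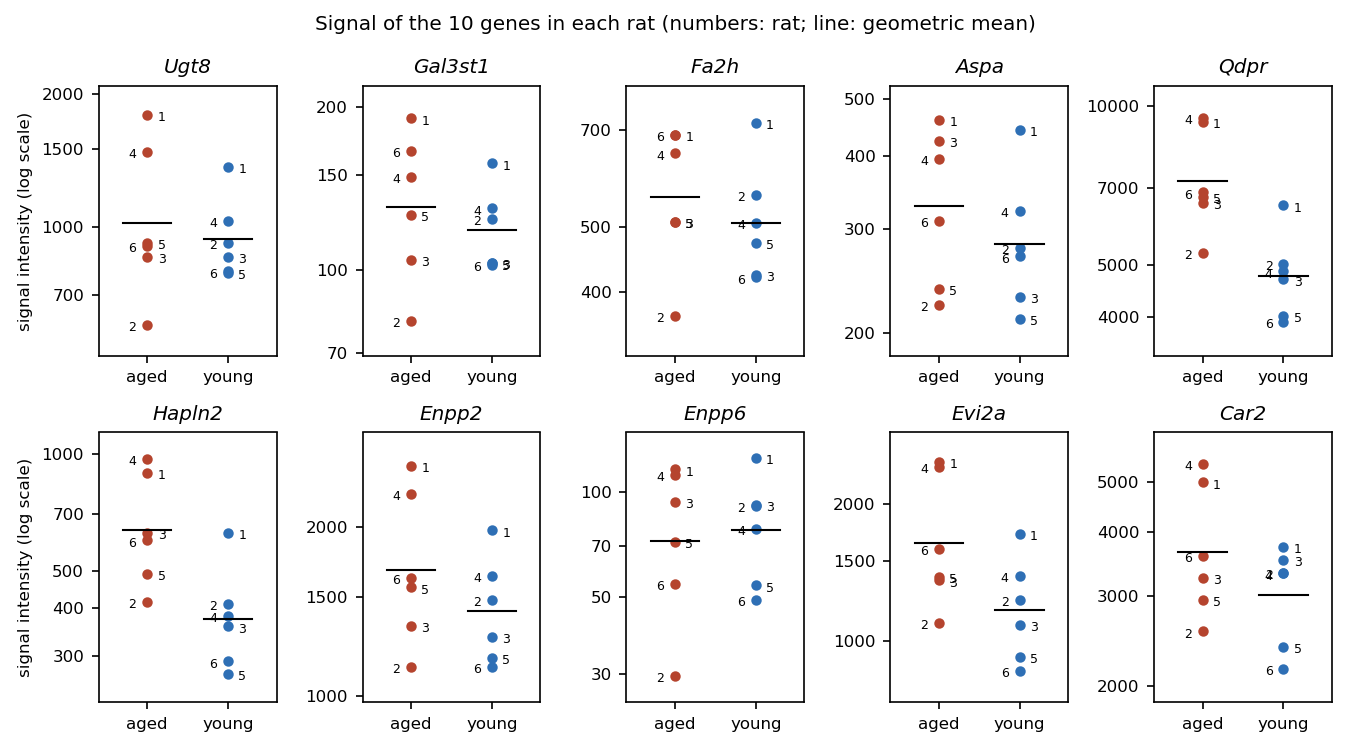
Signal intensity (log axis) of the probe set that represents each gene, with 1 point for each of the 6 aged (left) and 6 young (right) rats, labelled by rat number, and a line at the geometric mean. Aged rats 1 and 4 and young rat 1 are high for most of the genes, aged rat 2 is the lowest aged rat for all 10, and the groups overlap in every panel.

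Qdpr and Hapln2, with the smallest p among the 10 genes, and Ugt8 and Enpp6, with the largest, are shown by the 250 bases before their start sites (RefSeq, GRCr8, 5′ to 3′ on the gene's own strand). They lie at chr14:69882526-69882775 (+) for Qdpr, chr2:175794439-175794688 (-) for Hapln2, chr2:217007168-217007417 (-) for Ugt8 and chr16:52026729-52026978 (-) for Enpp6. Capitals mark the word ACAAAG, the word ACAATG, the word TCAAAG or the word TCAATG on either strand (their reverse complements included), spellings of the short core that SOX-family factors such as Sox10 bind.
Qdpr: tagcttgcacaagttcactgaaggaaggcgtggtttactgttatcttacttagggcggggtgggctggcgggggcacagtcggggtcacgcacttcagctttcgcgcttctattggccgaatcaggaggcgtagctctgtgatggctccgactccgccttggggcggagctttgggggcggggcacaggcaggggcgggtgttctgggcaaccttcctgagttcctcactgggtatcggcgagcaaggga
Hapln2: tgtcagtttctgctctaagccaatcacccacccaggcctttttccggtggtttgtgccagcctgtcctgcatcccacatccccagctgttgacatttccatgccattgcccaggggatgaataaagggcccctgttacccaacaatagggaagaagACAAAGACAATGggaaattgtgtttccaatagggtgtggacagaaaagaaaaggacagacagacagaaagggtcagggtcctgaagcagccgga
Ugt8: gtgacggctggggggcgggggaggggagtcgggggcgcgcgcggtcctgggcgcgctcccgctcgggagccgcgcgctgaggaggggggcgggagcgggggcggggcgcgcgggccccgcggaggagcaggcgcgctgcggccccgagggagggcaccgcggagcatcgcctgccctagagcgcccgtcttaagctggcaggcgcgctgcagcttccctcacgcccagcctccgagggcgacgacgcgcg
Enpp6: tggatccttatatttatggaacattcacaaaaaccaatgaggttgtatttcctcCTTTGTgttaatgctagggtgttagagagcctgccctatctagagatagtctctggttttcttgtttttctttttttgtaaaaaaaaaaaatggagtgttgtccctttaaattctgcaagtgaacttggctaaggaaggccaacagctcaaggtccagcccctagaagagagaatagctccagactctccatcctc
RefSeq promoter entries matched 7 of the 10 genes, all but Enpp2, Evi2a and Car2. Of these 7 windows, 3 held at least 1 of the words (Aspa, Hapln2 and Enpp6), whereas 40.0% of all 33465 promoter windows of this length did. The Hapln2 window held 2, ACAAAG and ACAATG, which abut without overlapping in the run of capitals, and 11.5% of all windows held at least 2. The windows differed in base composition, from a GC content of 81.2% with 40 CpG dinucleotides in Ugt8 to 40.0% with 0 CpG in Enpp6 and 39.2% with 1 CpG in Aspa, around a median of 51.2% and 5 CpG over all windows. Qdpr had 61.2% and 16 CpG, and Hapln2 50.8% and 2 CpG. A match of such short words is a description of the letters only.

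The 3 galactolipid enzymes had log2 fold changes of 0.12 to 0.14, none larger than its standard error. Ugt8 signal was 599 in the lowest, 912 in the median and 1794 in the highest aged rat, against 787, 888 and 1369 in young rats. The young rats lay inside the range of the aged rats, with aged rats 1 and 4 on top and aged rat 2 at the bottom. Ugt8 averaged 1091 ± 449 in aged rats and 959 ± 220 in young rats (SD, n = 6 each). Its log2 fold change was 0.12 (SE 0.25, 95% interval -0.43 to 0.66, adjusted p = 0.930 in limma). Without aged rat 1 that value was -0.05 and without aged rat 2 it was 0.27. The other Ugt8 probe set (1368857_at) was below the presence cutoff on all 12 arrays, with signals between 0.288 and 3.82, and was not tested.

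Fa2h, whose hydroxylated fatty acids give myelin galactolipids their close packing, had signals of 368, 577 and 688 (lowest, median and highest) in aged rats, against 420, 491 and 716 in young rats. Here young rat 1 was the highest of all 12 rats and aged rat 2 the lowest. The log2 fold change was 0.13 (SE 0.18, 95% interval -0.26 to 0.51, adjusted p = 0.879 in limma), and it was 0.065 without aged rat 6 and 0.25 without aged rat 2.

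Gal3st1 had signals of 80.3, 137 and 191 in aged rats, against 102, 113 and 157 in young rats. As for Ugt8, the aged rats reached both further up and further down than the young ones. Its log2 fold change was 0.14 (SE 0.20, 95% interval -0.30 to 0.58, adjusted p = 0.881 in limma), and it was 0.035 without aged rat 1 and 0.28 without aged rat 2. Within the lower and the higher code series it was -0.024 and 0.39 for Gal3st1 and -0.044 and 0.35 for Fa2h. For all 3 galactolipid enzymes the 95% interval included 0 and also reached past 0.5 on the log2 scale, so with 6 rats in each group a higher signal of that size was compatible with the data. So was a lower signal in aged rats, since the lower ends were -0.43 for Ugt8, -0.26 for Fa2h and -0.30 for Gal3st1.

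Aspa, which breaks down N-acetylaspartate and whose loss causes Canavan disease in humans, had signals of 223, 353 and 461 in aged rats, against 211, 274 and 443 in young rats. Aged rats 1, 3 and 4 and young rat 1 were near the top, and both groups spanned nearly the same range. Its log2 fold change was 0.21 (SE 0.22, 95% interval -0.28 to 0.71, adjusted p = 0.831 in limma), and it was 0.12 without aged rat 1 and 0.34 without young rat 1.

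Qdpr regenerates tetrahydrobiopterin, the cofactor of the aromatic amino acid hydroxylases, and is expressed far more widely than the lipid enzymes. Its signal was 5282 in the lowest, 6814 in the median and 9508 in the highest aged rat, against 3914, 4787 and 6493 in young rats. A single pair of rats crossed: aged rat 2 (5282) was below young rat 1 (6493), and the other 5 aged rats were above all young rats. Qdpr averaged 7386 ± 1677 in aged rats and 4839 ± 931 in young rats (SD, n = 6 each). The log2 fold change was 0.60 (SE 0.16, 95% interval 0.24 to 0.96, adjusted p = 0.294 in limma). Within the lower code series the log2 fold change was 0.47 and within the higher one 0.68, and leaving out any single rat gave values between 0.52 and 0.69.

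Car2, which interconverts carbon dioxide and bicarbonate, was measured by a pair of probe sets. The brighter one (1367733_at) gave signals of 2558, 3423 and 5424 in aged rats, against 2164, 3325 and 3741 in young rats. Aged rats 1 and 4 stood above all other rats, while the remaining 4 aged rats fell among the young ones. Its log2 fold change was 0.28 (SE 0.21, 95% interval -0.17 to 0.73, adjusted p = 0.720 in limma), and it was 0.16 without aged rat 4 and 0.38 without aged rat 2. The second probe set (1386922_at) gave signals of 1370, 1922 and 2952 in aged rats, against 1265, 1746 and 2306 in young rats, with a log2 fold change of 0.25 (adjusted p = 0.816 over all 28158 probe sets tested). Across the 12 rats, each centred on its age group, the probe sets of Car2 followed each other closely (r = 0.95). Because red blood cells also carry carbonic anhydrase 2 in many mammals, the blood markers are given beside it. The centred Car2 signal had r = -0.29 with Hbb and r = -0.79 with the mean of 8 blood cell genes. That list is not one of red cells alone, since it includes S100a8 and S100a9. The mean of the 10 members had r = -0.76 with it, so the value is not particular to Car2.

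Enpp2 (autotaxin) is secreted and makes lysophosphatidic acid. Its signal was 1128, 1593 and 2572 in aged rats, against 1127, 1379 and 1972 in young rats. The lowest aged and the lowest young rat were at the same level, and aged rats 1 and 4 were above every young rat. The log2 fold change was 0.25 (SE 0.21, 95% interval -0.22 to 0.71, adjusted p = 0.767 in limma), and it was 0.12 without aged rat 1 and 0.36 without aged rat 2. The choroid plexus, which borders the ventricles and can be caught in a dissection, also makes Enpp2. The summed signal of 10 choroid plexus genes was 540 to 1073 in aged rats and 401 to 1894 in young rats, Ttr was 77.8 to 629 in aged rats and 89.3 to 1417 in young rats, and the centred Enpp2 signal had r = -0.13 with Ttr and r = 0.02 with the choroid plexus mean over the 12 rats.

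Enpp6, a choline-specific phosphodiesterase that marks newly forming oligodendrocytes in mice, was the one gene with a lower mean log2 signal in aged rats. Its signals were 29.6, 82.9 and 116 in aged rats, against 49.0, 84.8 and 126 in young rats. The medians were nearly equal and aged rat 2 was far below the rest. The log2 fold change was -0.10 (SE 0.35, 95% interval -0.86 to 0.65, adjusted p = 0.962 in limma), the widest interval of the 10 genes, and it was 0.15 without aged rat 2 and 0.04 without young rat 1.

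Hapln2 (Bral1) links hyaluronan to proteoglycans in the matrix at the nodes of Ranvier. Its brightest probe set (1370849_at) gave 415, 612 and 971 in aged rats, against 270, 370 and 625 in young rats. Young rat 1 (625) was above aged rats 2, 5 and 6, and the other 5 young rats were below all aged rats. Hapln2 averaged 666 ± 222 in aged rats and 389 ± 127 in young rats (SD, n = 6 each). The log2 fold change was 0.77 (SE 0.25, 95% interval 0.23 to 1.30, adjusted p = 0.384 in limma), with 0.61 within the lower and 0.80 within the higher code series and 0.64 to 0.91 on leaving out any single rat.

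The other Hapln2 probe sets were dimmer. The second (1394952_at) gave 78.5, 103 and 194 in aged rats, against 27.5, 60.1 and 125 in young rats, with a log2 fold change of 0.85 (SE 0.34, adjusted p = 0.592 in limma). It followed the brightest one across the rats (r = 0.80, n = 12, centred on age group). The third (1390017_at) gave 19.1, 45.4 and 66.2 in aged rats, against 28.9, 34.2 and 42.9 in young rats, with a log2 fold change of 0.14 (SE 0.31, adjusted p = 0.960), and ran the other way across rats (r = -0.27 and -0.38 with the other probe sets). Its signals lay near the presence cutoff (a signal of 19.7), it was above it on 11 arrays, and its 95% interval of -0.54 to 0.82 included the value of the brightest probe set. The difference between the probe sets was not tested. Of the 13 member probe sets tested, 3 were higher in aged rats at an unadjusted p up to 0.05 (Qdpr and the first and second of Hapln2), in a fit where 5.67% of all probe sets were, and none passed the adjusted threshold, which 0.0249% of all probe sets did.

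Evi2a encodes a small membrane protein whose function is not well known, and the gene lies within the span of Nf1, as do Evi2b and the oligodendrocyte-myelin glycoprotein gene Omg. Its signal was 1097, 1486 and 2468 in aged rats, against 859, 1158 and 1718 in young rats. Aged rats 1 and 4 were well above all others, and young rat 1 was above the remaining 4 aged rats. The log2 fold change was 0.49 (SE 0.23, 95% interval -0.02 to 1.00, adjusted p = 0.556 in limma). Its neighbours within Nf1 gave log2 fold changes of 0.31 for Evi2b (SE 0.23) and -0.03 for Omg (SE 0.07), with adjusted p of 0.723 and 0.937.

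**Figure D2:**
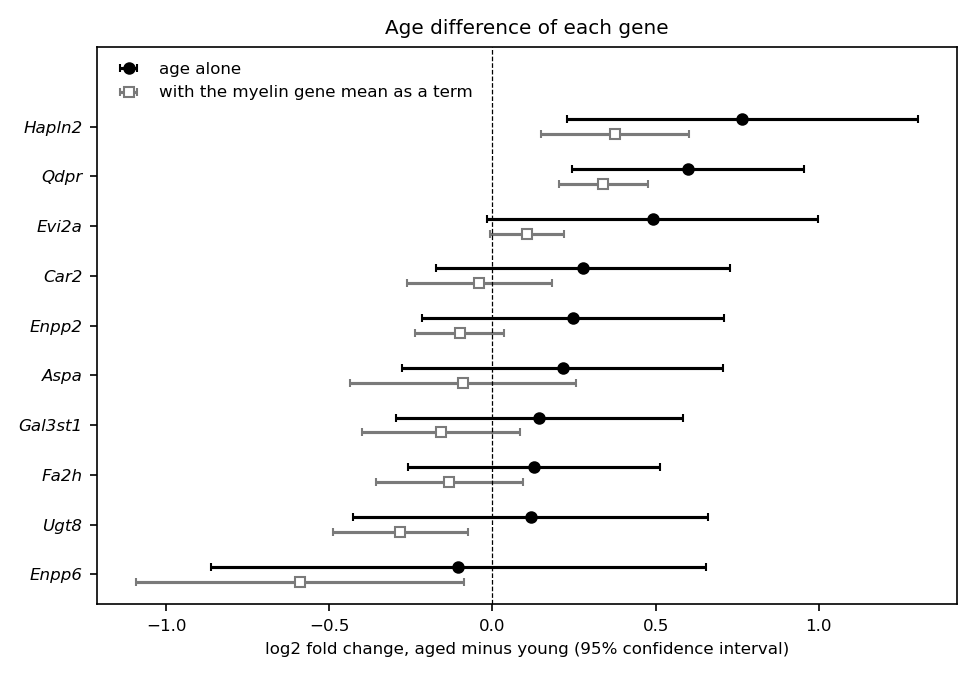
Log2 fold change of each gene, aged minus young, with its 95% confidence interval from limma (6 aged and 6 young rats), from the fit of age alone (filled circles) and from the fit that also holds the myelin gene mean of each rat (open squares). The intervals of Hapln2 and Qdpr lie above 0 in both fits, and those of Ugt8 and Enpp6 lie below 0 only in the second fit.

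The spread between rats of one age was wide for these genes. The within-group SD of the log2 signal was lowest for Qdpr (0.30) and highest for Enpp6 (0.64), with a median of 0.40, and it was above the median of all genes (0.20) for all 10. The standard errors of the age difference were therefore 0.16 to 0.35, against a median of 0.11 for all genes.

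That spread was shared. Over the 45 pairs of genes, the correlation across the 12 rats, after each gene was centred on its age group, was 0.67 at the lowest (Gal3st1 with Aspa), 0.85 at the median and 0.99 at the highest (Enpp2 with Evi2a). Qdpr with Evi2a and Ugt8 with Enpp2 reached 0.98, and Qdpr with Hapln2 0.97. When the signals were also centred on the code series the range was 0.65 to 0.99 with a median of 0.89, and without the rats that lay farthest from their groups (aged rats 1 and 2) it was 0.32 to 0.98 with a median of 0.79. Points in these correlations share the array and its scaling. Against the mean of the other members, Qdpr had the highest correlation (0.98) and Aspa the lowest (0.81).

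The order of the rats can be read from the mean of the 10 genes in each rat, given as the log2 difference from the young mean. It was 0.82 in aged rat 1, -0.38 in rat 2, 0.20 in rat 3, 0.73 in rat 4, 0.09 in rat 5 and 0.26 in rat 6, against 0.53, 0.09, -0.08, 0.11, -0.32 and -0.34 in young rats 1 to 6. Aged rats 1 and 4 were above all young rats and aged rat 2 was below all of them. Aged rat 2 is also the array with the lowest mean correlation with the others, and without it the median log2 fold change of the 10 genes was 0.34, while without aged rat 1 it was 0.12. The part of array quality in these values was not tested.

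**Figure D3:**
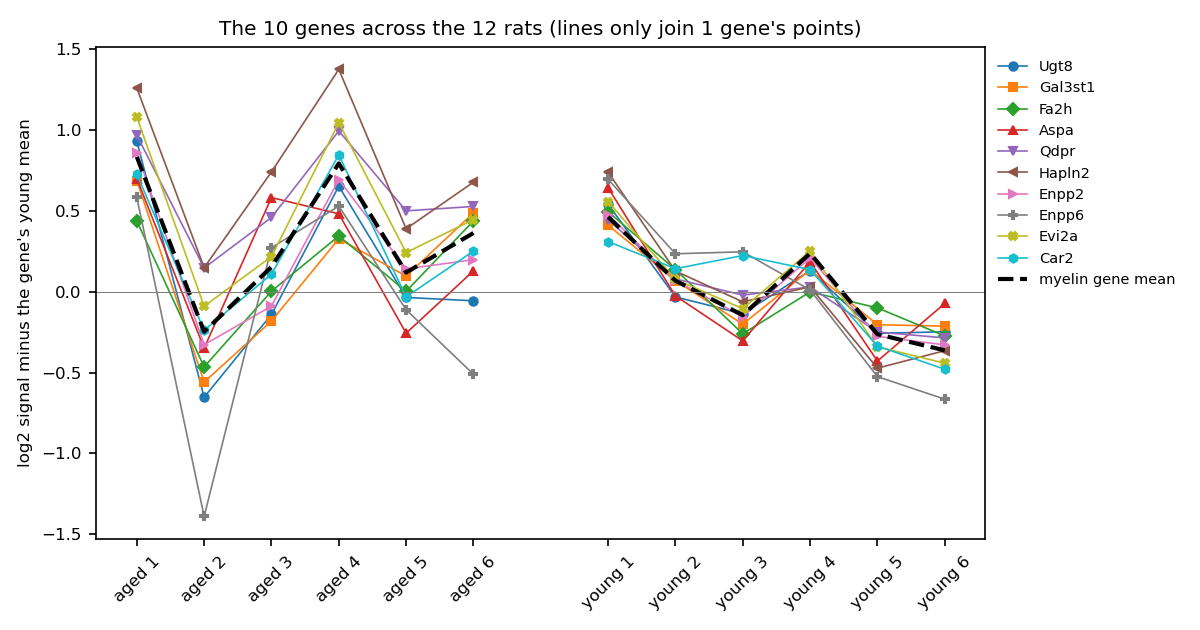
Log2 signal of each of the 10 genes in each rat minus the gene's young mean (6 aged rats on the left, 6 young rats on the right), with the mean of 19 structural myelin genes as a dashed line. Most of the genes peak in aged rats 1 and 4 and in young rat 1, while Fa2h and Gal3st1 are higher in aged rat 6 than in aged rat 4 and Aspa is higher in aged rat 3. Enpp6 drops furthest in aged rat 2.

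A list of myelin sheath and oligodendrocyte membrane genes, from Mbp, Mog and Mag to junction and adhesion proteins, was taken as a measure of myelin RNA in each sample. It also named a chaperone, an actin-severing protein and transferrin, so it is broader than the name used for it here, the structural myelin genes. All 19 of these genes that were measured were above the cutoff on all 12 arrays, and their summed signal was 45002 to 79298 in aged rats and 43153 to 65603 in young rats. Their mean per rat, as a log2 difference from the young mean, was 0.83, -0.25, 0.15, 0.79, 0.12 and 0.36 in aged rats 1 to 6, against 0.46, 0.07, -0.14, 0.24, -0.26 and -0.36 in young rats 1 to 6. It averaged 0.34 higher in aged rats. The mean of the 10 genes followed it nearly point for point, with r = 0.98 and rho = 0.97 over the 12 rats, r = 0.96 without aged rats 1 and 4, r = 0.99 among the 6 aged and r = 0.97 among the 6 young rats. Within the lower code series (7 rats) r was 0.99, and the higher one, with 5 rats, was too small for this. Both means come from the same arrays. Among the 19 structural genes, 18 had higher and 1 lower signals in aged rats, with a median of 0.34. At an unadjusted p up to 0.05 in limma 2 of them were higher, beside 6.47% of all genes. They were Gjb1, a gap junction protein (0.66), and Ninj2, an adhesion protein (0.47 on the log2 scale).

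A further fit, chosen after the data had been seen, held the myelin gene mean of each rat as a term beside age. In it 3 of the 10 genes had a higher and 7 a lower log2 value in aged than in young rats at a given myelin level, and the median became -0.10. At an unadjusted p up to 0.05, 4 members differed, in a fit where 9.89% of all genes did, 2 of them higher (7.35% of all genes) and 2 lower (2.54%), and none passed the adjusted threshold (0.0151% of all genes did). Qdpr was 0.34 higher (SE 0.06, 95% interval 0.20 to 0.48, adjusted p = 0.132 in limma). Hapln2 was 0.38 higher (SE 0.10, 95% interval 0.15 to 0.60, adjusted p = 0.274 in limma). On the other side, Ugt8 had a log2 difference of -0.28 (SE 0.09, 95% interval -0.49 to -0.08, adjusted p = 0.361 in limma) and Enpp6 one of -0.59 (SE 0.23, 95% interval -1.09 to -0.09, adjusted p = 0.445 in limma). For Evi2a the difference was 0.11 with an interval of -0.01 to 0.22, and those of Gal3st1, Fa2h, Aspa, Enpp2 and Car2 lay between -0.16 and -0.04 with intervals that included 0.

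A related but different measure can be read rat by rat, the gene minus the myelin gene mean, which takes that mean off in full. The fit above instead estimated each gene's slope on that mean: 0.77 for Qdpr, 1.16 for Hapln2, 1.19 for Ugt8 and 1.45 for Enpp6. These are the genes with the smallest p in that fit, and the arrays are the same, so the values are not an independent check of it. Qdpr minus the myelin gene mean was 0.13 to 0.39 in aged rats and -0.21 to 0.12 in young rats, so every aged rat was above every young rat, though only just (0.13 in aged rat 1 against 0.12 in young rat 3). By this measure 0.0302% of all genes had all aged above all young rats and 0.143% all aged below, against 0.536% and 0.241% without the subtraction. The subtracted mean was itself higher in aged rats and varied between rats, which shifts genes that do not follow myelin. The shares are therefore no measure of how rare the separation of Qdpr is. Hapln2 minus the myelin gene mean was 0.27 to 0.59 in aged rats and -0.21 to 0.28 in young rats, where only aged rat 5 and young rat 1 crossed. For Ugt8 the values were -0.42 to 0.10 in aged rats and -0.11 to 0.11 in young rats, with aged rat 1 inside the young range and the other 5 aged rats below it. For Enpp6 they were -1.14 to 0.12 in aged rats and -0.30 to 0.39 in young rats, and only aged rats 2 and 6 lay below the young range.

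**Figure D4:**
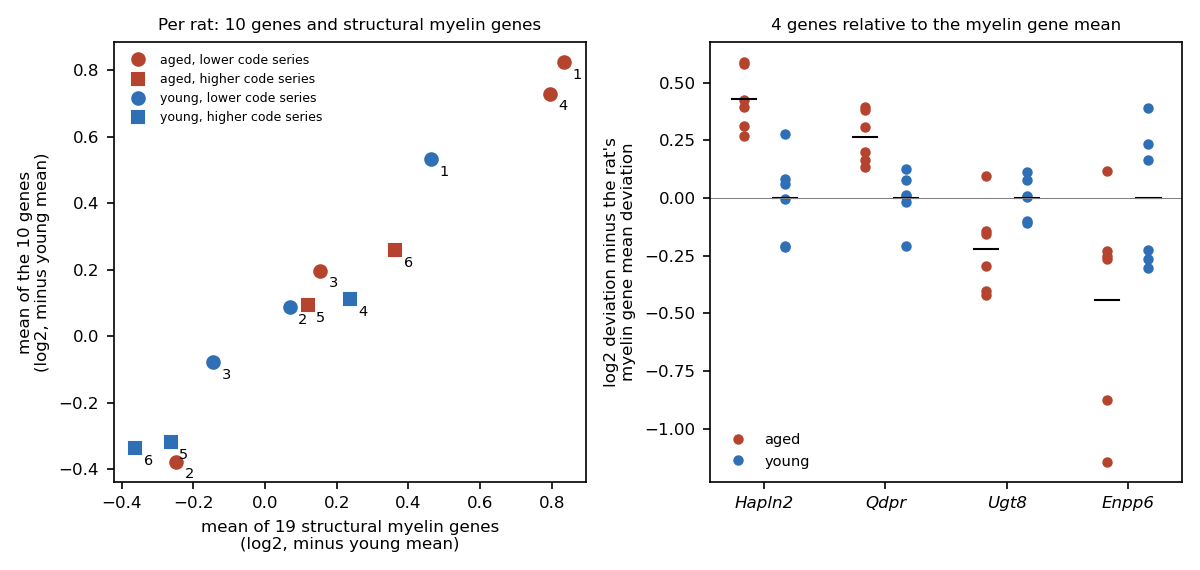
Left, mean of the 10 genes (y axis) against the mean of 19 structural myelin genes (x axis) in each of 12 rats, both as log2 differences from the young mean, with rat numbers, colour for age and symbol for code series; the points lie along one line (r = 0.98). Right, log2 deviation of 4 genes minus that of the myelin gene mean, aged left of young, with a line at the mean; only for Qdpr do the groups not overlap.

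The pathways around the members were then described from lists of their partners. Among 19 other genes listed for galactolipid and sphingolipid metabolism that were tested, 16 had higher and 3 lower signals in aged rats, with a median log2 fold change of 0.12, and 4 reached an unadjusted p up to 0.05, all higher. They included Plekhb1 (5404 ± 996 in aged and 3986 ± 652 in young rats, log2 fold change 0.43, adjusted p = 0.391), whose product binds membrane lipids and is not an enzyme of the pathway. Also among them were Galc, the galactosylceramidase that takes the galactose off again (484 ± 48.0 in aged and 423 ± 25.3 in young rats, 0.19, adjusted p = 0.478), and Sgms1, a sphingomyelin synthase (366 ± 34.2 in aged and 320 ± 33.1 in young rats, 0.19, adjusted p = 0.532). The 11 genes of very long chain fatty acid synthesis were split, 5 higher and 6 lower, with a median of -0.02 and none at an unadjusted p up to 0.05. Elovl6, an elongase, came closest with -0.14 (adjusted p = 0.629).

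Around Aspa, 7 of 9 genes of N-acetylaspartate and acetate use had higher and 2 lower signals in aged rats, with a median of 0.06. Acss2, which makes acetyl-CoA from acetate, had 1537 ± 135 in aged and 1723 ± 95.7 in young rats, a log2 fold change of -0.17 (adjusted p = 0.488 in limma), and it was the one gene of that list at an unadjusted p up to 0.05. Nat8l, the synthase that makes N-acetylaspartate in neurons, gave 0.03 (SE 0.09).

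Around Qdpr, 5 of 8 genes listed for tetrahydrobiopterin were measured, 4 higher and 1 lower in aged rats, with a median of 0.10 and none at an unadjusted p up to 0.05. The 5 include Ptpa, a phosphatase 2A activator and not a gene of this cofactor (log2 fold change 0.11, adjusted p = 0.570 in limma). The counts and the median are therefore not those of the cofactor pathway alone. Gchfr, the feedback regulator of the first enzyme of cofactor synthesis, gave 0.57 (SE 0.30, adjusted p = 0.595). The mean of the 5 listed genes, Ptpa included, had r = -0.22 with the mean of the 10 members across the 12 rats, centred on age group.

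Around Enpp2, 8 of 10 genes of lysophosphatidic acid signalling were higher and 2 lower in aged rats, with a median of 0.26. Lpcat1, which acylates lysophosphatidylcholine, the substrate of autotaxin, had 601 ± 54.7 in aged and 704 ± 60.2 in young rats, a log2 fold change of -0.23 (adjusted p = 0.438 in limma). Plpp2, a lipid phosphatase, gave 0.47 and the receptor gene Lpar6 0.27, with adjusted p of 0.567 and 0.632.

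Around Hapln2, the 13 genes of the nodal and hyaluronan matrix were 6 higher and 7 lower in aged rats, with a median of -0.02. Cntn2, an axon and oligodendrocyte adhesion protein beside the node, had signals of 162 to 232 in aged and 129 to 172 in young rats, a log2 fold change of 0.44 (adjusted p = 0.278 in limma). Hapln1, the link protein of perineuronal nets, gave -0.26 (SE 0.14, adjusted p = 0.598), where Hapln2 gave 0.77. The difference between these link proteins was not tested. Around Car2, 8 of 14 carbonic anhydrase and bicarbonate transporter genes were higher and 6 lower, with a median of 0.01, and Car3 alone reached an unadjusted p up to 0.05 (67.6 ± 19.8 in aged and 42.1 ± 4.25 in young rats, 0.63, adjusted p = 0.355).

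**Figure D5:**
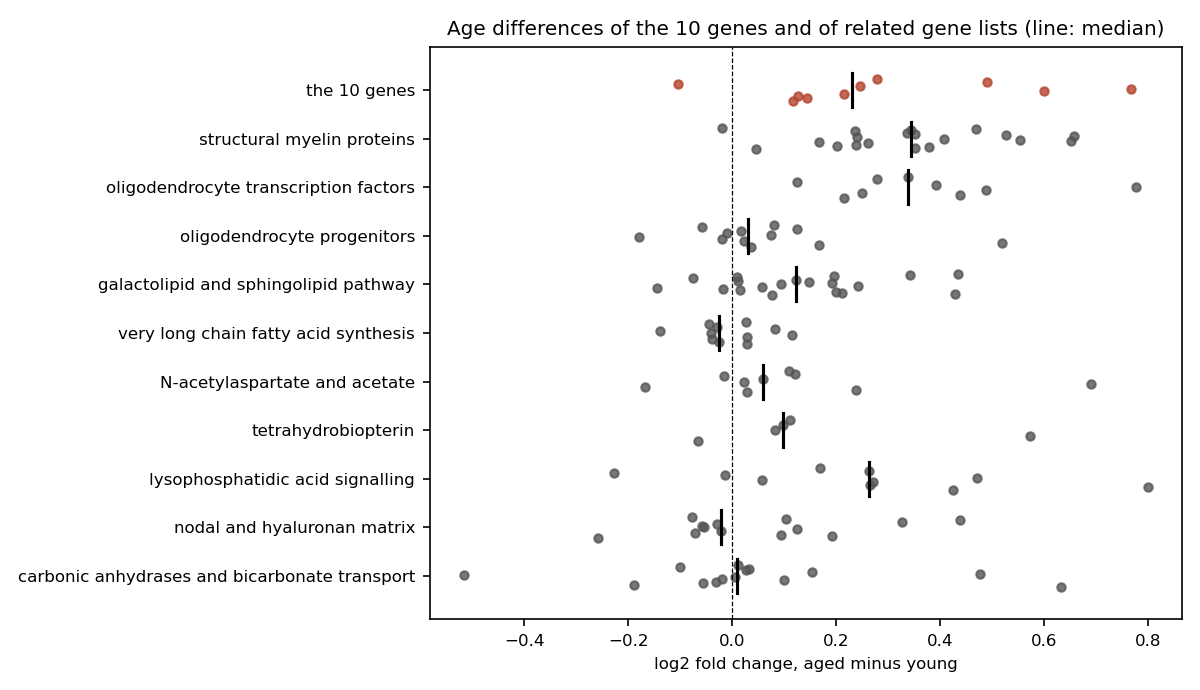
Log2 fold change, aged minus young, of each of the 10 genes (top row) and of each gene tested in 10 related lists (1 point for each gene, offset vertically for legibility, with a line at the median). The medians of the 10 genes (0.23), the structural myelin proteins (0.34) and the oligodendrocyte transcription factors (0.34) lie to the right of 0. So do those of lysophosphatidic acid signalling (0.26), galactolipid and sphingolipid genes (0.12) and tetrahydrobiopterin (0.10). Next to 0 lie those of N-acetylaspartate and acetate (0.06), progenitors (0.03), carbonic anhydrases and bicarbonate transport (0.01), fatty acid synthesis (-0.02) and the nodal matrix (-0.02).

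Other markers of the lineage and of other cells stood as follows. At an unadjusted p up to 0.05, which 6.47% of all genes reached as higher and 2.62% as lower in aged rats, 3 of 12 microglial, 3 of 8 endothelial, 2 of 8 blood cell, 1 of 10 meningeal and 1 of 6 hippocampal genes were higher, and 2 of 15 neuronal genes and 1 of 10 meningeal genes were lower. All 9 oligodendrocyte transcription factor genes tested were higher in aged rats, 4 at that threshold, among them Olig2 (0.44, adjusted p = 0.368), Nkx6-2 (0.78, adjusted p = 0.438) and Myrf (0.49, adjusted p = 0.487), with a median of 0.34, a summed signal of 4271 to 7032 in aged and 3710 to 5477 in young rats, and a mean that had r = 0.96 with that of the members across rats, centred on age group. Progenitor markers were 8 higher and 4 lower, with a median of 0.03, a summed signal of 8691 to 12509 in aged and 8270 to 10352 in young rats, and r = 0.40 with the members. Neuronal markers were 4 higher and 11 lower, with a median of -0.08, a summed signal of 66113 to 71962 in aged and 66823 to 82233 in young rats, and r = 0.33. Astrocyte markers were 9 higher and 2 lower, with a median of 0.05, a summed signal of 67036 to 82657 in aged and 64863 to 78768 in young rats, and r = 0.32. Microglial markers (11 of 12 higher, median 0.31, summed signal 11903 to 19644 in aged and 11289 to 14732 in young rats) had r = 0.14, with a median of 0.18 without aged rat 6, and endothelial markers (8 of 8 higher, median 0.22, summed signal 4146 to 6052 in aged and 3738 to 4635 in young rats) had r = 0.23. Blood cell markers were all 8 higher in aged rats, with a median of 0.38, a summed signal of 6496 to 9967 in aged and 5161 to 9504 in young rats, and r = -0.76 with the members. Only 5 of these 8 genes were above the presence cutoff on all 12 arrays. The same held for 7 of 10 choroid plexus, 4 of 6 hippocampal, 9 of 10 meningeal and 11 of 12 microglial genes. For genes of neighbouring tissue r was 0.66 for 10 meningeal genes (5 higher and 5 lower, summed signal 4063 to 11148 in aged and 3172 to 10689 in young rats), r = -0.76 for 7 striatal genes (4 higher and 3 lower, summed signal 3139 to 3847 in aged and 3232 to 3815 in young rats), beside r = -0.39 for 6 hippocampal genes (3 higher and 3 lower, summed signal 1713 to 2799 in aged and 1760 to 2423 in young rats) and r = 0.05 for the choroid plexus genes. No gene of these lists passed an adjusted p of 0.05 in limma. The part of tissue composition in the age differences of the 10 genes was not tested.

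The genes outside the members whose signals ran most like theirs across the 12 rats, centred on age group, were Cd9 (r = 0.99 with the mean of the standardised members), Mag, Ermn, Atp11a, Myo1d Septin4, Gpr37 and Sgk3 (all r = 0.98). Of these 8, 5 (Cd9, Mag, Ermn, Septin4 and Gpr37) stand in the list of structural myelin genes. Their log2 fold changes lay between 0.24 for Gpr37 and 0.55 for Ermn, with adjusted p between 0.532 for Sgk3 and 0.829 for Gpr37 in limma.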

How the data were processed

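RNA from the cortex of 12 rats was hybridised to 1 Affymetrix rat expression array each. The deposited values are 1 signal intensity for each of 31099 probe sets and array. MAS5, GCRMA and R (2.7.1) stand in the submitters' processing notes, without roles, and the study's methods give gcRMA. The intensities deposited by the authors are on a linear scale, with a mean near 500.1 on each array after trimming 2% at each end, so arrays were already scaled to each other, and gcRMA-type background removal can push dim signals close to 0. Their log2 was taken here with no further normalization.

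Symbols came from the array annotation, updated by gene ID through RefSeq (20764 probe sets found): 20832 probe sets had 1 symbol, 436 several and 9831 none, and the last 2 classes were left out of the gene test. Where a gene had several probe sets the brightest on average stood for it, and a gene was tested where at least 3 arrays exceeded a log2 signal of 4.3, the cutoff of the study's methods. The study chose that cutoff on gcRMA log2 values. On the deposited scale 83.3% to 87.1% of probe sets exceeded it on each array, and whether it separates signal from noise there was not tested. The 57 control probe sets were left out of the probe set fit.

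Aged and young rats were compared with limma 3.58.1 (R 4.3.3; lmFit and eBayes, two-sided, Benjamini-Hochberg adjustment over all genes or probe sets tested), all 12 arrays in 1 fit, with no covariate. The number of arrays limits the precision. The fit was tested on simulated data. Plots came from matplotlib 3.10.9 under Python 3.11.15. Named genes were all members, from each list at most the 3 genes of smallest p, and the 8 genes most correlated with the mean of the standardised members; Nat8l, Hbb, Ttr, Mbp, Mog, Evi2b and Omg were named beside them after their values were seen. The members and lists were chosen with earlier results of these data known. Alternatives covered normalization, filters, the offset before the log, probe set choice, variance models, the methods' t-test, blocks, code series and single rats left out. Gene models at GRCr8 supplied promoters only, since the build of the array annotation is not given in the sources used here.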

Additional observations from a re-analysis of the deposited data

How the results depend on the processing

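No member passed the adjusted threshold in any of the 28 alternative settings, of which 12 left out 1 rat each. The count of members at an unadjusted p up to 0.05, 2 as reported, was 0 within the lower code series (where 4.76% of all genes reached it). It was 4 with the myelin gene mean as a term (an alternative chosen after seeing the data, where 9.89% of all genes reached it). In the others it was 2 or 3, beside 7.46% to 11.4% of all genes, with 2 to 3 on leaving out 1 rat. The median log2 fold change of the 10 genes (0.23) was 0.12 to 0.34 on leaving out 1 rat (lowest without aged rat 1, highest without aged rat 2), 0.16 with median centring, 0.14 within the lower and 0.34 within the higher code series, 0.39 without aged rats 2 and 6, and -0.10 with the myelin term. Gal3st1 and Fa2h were -0.024 and -0.044 within the lower code series. On leaving out 1 rat, Ugt8 was -0.046 (without aged rat 1) to 0.27 and Enpp6 -0.24 to 0.15 (without aged rat 2). Enpp6 was 0.10 with array weights, 0.082 within the higher code series, 0.035 without young rat 1 and 0.32 without aged rats 2 and 6. With the myelin term Ugt8 was -0.28, Gal3st1 -0.16, Fa2h -0.13, Aspa -0.090, Enpp2 -0.10 and Car2 -0.040. The causes of these shifts were not tested. Qdpr, Hapln2 and Evi2a kept their direction in all 28 settings. The count of all genes past the adjusted threshold, 7 as reported, was 0 to 18, highest with an intensity trend and robust variances. Scaling moved the split of all genes at an unadjusted p up to 0.05: 858 were higher and 347 lower in aged rats as reported, 589 and 467 after quantile normalization, and 413 and 883 after median centring, where the median of all genes was -0.05, against 0.02 as reported; 9 members were higher and 1 lower in each. Rats share subject numbers across ages. The same-numbered rats' deviations correlated from -0.04 to 0.16, over 0.1 for 4 of 6 numbers. Of the rats, 5 of 6 aged and 4 of 6 young correlated best with their own number. The main fit did not treat them as pairs, and what same-numbered rats may share was not tested. With the subject number as a block in limma, 3 members (Qdpr, Hapln2 and Evi2a) reached an unadjusted p up to 0.05, where 11.3% of all genes did. Evi2a had an adjusted p of 0.322 there, 0 members passed the adjusted threshold, and the median was 0.23. Of the list medians, those of microglia (0.31, but 0.11 within the lower and 0.46 within the higher code series), neurons (-0.08, but -0.0021 and -0.22) and hippocampus (0.0060, but 0.25 without aged rat 3) changed with the rats used. Pathway lists shifted too. Within the higher code series the median was 0.07 for fatty acid synthesis (-0.02 as reported), 0.23 for galactolipid and sphingolipid genes (0.12) and 0.19 for the tetrahydrobiopterin list (0.10). For the nodal matrix it was 0.08 within the lower series (-0.02 as reported). The number of arrays limits all intervals, and signals near the cutoff, such as those of the third Hapln2 probe set, are the least precise.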
